A study of Homo sapiens with 6 samples.

Results

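MARCH1 to MARCH5 are 5 genes for membrane-bound RING-CH ubiquitin ligases, enzymes that sit in a membrane and attach ubiquitin to neighbouring proteins. They were picked by gene ID out of 58302 genes in the table, and the choice was made with their counts and their differences between the CYT and control libraries known. The values below were therefore what they were chosen by, so they are given as a description, and no p-value is given for a member. The gene IDs were ENSG00000145416 for MARCH1, ENSG00000099785 for MARCH2, ENSG00000173926 for MARCH3, ENSG00000144583 for MARCH4 and ENSG00000198060 for MARCH5, and all 5 passed the filter on low counts.

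The study measured RNA in MDA-MB-231-DR, which was derived from the triple-negative breast line MDA-MB-231 and resists doxorubicin, to look for genes that respond to cyperotundone (CYT), a sesquiterpenoid of nutgrass. There were 3 control libraries of MDA-MB-231-DR cells and 3 libraries of the same cells treated with CYT. Both groups were of the resistant line, which the methods describe as kept in medium with a low concentration of doxorubicin. The dose and duration of CYT for these libraries were not given in the sources used here. The methods say in general that data were averaged over independent experiments, and not whether the sequenced libraries of a group were separate cultures, so p-values measured the spread between these samples, which may be technical. Total counts were 17357053, 17770102 and 14050849 in control 1, 2 and 3, and 14106017, 13056270 and 13423683 in CYT 1, 2 and 3.

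Ubiquitin is passed from an E2 conjugating enzyme to a target protein with the help of a ligase, and the RING-CH fold, a zinc-binding RING variant, is where a MARCH ligase holds its E2. Most MARCH ligases span a membrane and are known for marking other membrane proteins for removal from the cell surface, for endosomal sorting or for degradation. MARCH1 is best known in antigen-presenting cells, where it lowers MHC class II and CD86, whereas MARCH5 lies in the outer mitochondrial membrane and acts on proteins of mitochondrial fission and fusion.

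Markers of the line, of luminal cells and of blood cells were looked at first. The vimentin gene VIM was the most abundant of 8 line markers, ESR1 had 0 to 4 counts and PGR 0 to 3 in a library, and ERBB2 was at 62.9 ± 22.4 CPM (SD, n = 3) in control and 35.2 ± 17.6 CPM in CYT. The summed level of the line markers was 3577, 3530 and 3886 CPM (counts relative to library size, with TMM factors) in control 1, 2 and 3 against 1636, 1657 and 1663 CPM in CYT 1, 2 and 3. Of 6 line markers tested VIM, EGFR, AXL and SPARC fell with CYT and 0 rose (66.7% called beside 28.6% of all genes). AXL (-0.82 ± 0.27 SE, edgeR adjusted p = 0.0444) was not called with any 1 library left out (0.0509 to 0.131), with upper-quartile scaling (0.0786) or with no filter (0.0670). ERBB2 was not called (edgeR adjusted p = 0.190), except in the fit with the replicate block (-0.91, adjusted p = 0.0234).

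Among 10 luminal markers, of which 5 were tested, KRT8 had the highest mean level in control and in CYT. KRT19 was above it in control 1 and KRT18 in control 2. KRT19 fell (log2 fold change -3.45 ± 0.52 SE, adjusted p = 0.00187 by edgeR quasi-likelihood, Benjamini-Hochberg adjusted), and 0 rose (20% called beside 28.6% of all genes). KRT18 was below control in every CYT library and not called (-1.02 ± 0.35 SE, edgeR adjusted p = 0.0549). It was called lower with the replicate block (0.0193), with no filter (0.0469), by DESeq2 (0.0343) and by limma (0.0362 and 0.0367), and not with upper-quartile scaling (0.0841) or any 1 library left out (0.0532 to 0.169). CDH1, with too few counts for the filter, had 0 in each control library and 6, 16 and 2 counts in CYT 1, 2 and 3, and it was called higher with no filter (6.07, edgeR adjusted p = 0.0147). The luminal sum was 1158, 673 and 867 CPM in control and 518, 212 and 523 CPM in CYT. Among 8 blood markers CD3E was at 0 in every library, and the sum was 1.05, 0.479 and 1.65 CPM in control against 4.16, 5.20 and 4.13 CPM in CYT. CD14 had the highest mean level of the blood markers in control and in CYT, although ITGAX was above it in control 2. CD14 was also the only 1 with enough counts to be tested, with 10, 4 and 19 counts in control and 51, 59 and 49 in CYT. It rose (2.43 ± 0.61 SE, edgeR adjusted p = 0.0157), and it was not called without control 1 (adjusted p = 0.0634). Its log2 fold change was 1.95 without control 2 and 3.20 without control 3. ITGAX, too low to be tested, had 7, 5 and 1 counts in control and 0 in each CYT library. PTPRC, also too low to be tested, had 0 in each control library and 7, 2 and 2 counts in CYT 1, 2 and 3. The part of these marker differences in the values of the MARCH genes was not tested.

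CYT 2 stood apart from the other libraries. Its log2 CPM correlated with those of CYT 1 and CYT 3 at r = 0.9052 and 0.9045 across genes, while CYT 1 and CYT 3 correlated at 0.970 and the control libraries at 0.953 to 0.971. Genes are not independent replicates, and these values only rank the libraries. Some values that rested on CYT 2 are followed by the value without it, but not every such value is marked. Group means, SDs and shares include CYT 2 throughout.

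The 5 genes lie on 5 chromosomes and share the codon pattern of the RING-CH fold. In the coordinates of hg38, MARCH1 spans chr4:163524298-164384050 on the minus strand, MARCH2 chr19:8413270-8439017 on the plus strand, MARCH3 chr5:126867714-127030808 on the minus strand, MARCH4 chr2:216257865-216372027 on the minus strand and MARCH5 chr10:92291163-92353964 on the plus strand. Each coding sequence of the GENCODE release 29 annotation was searched in frame for 8 codons of cysteine or histidine in the order C, C, C, C, H, C, C, C with the spacing of the RING-CH fold, and each of the 11 MARCH genes held the pattern 1 time. The stretches are shown because they are the part by which the family is defined, and they let the close pairs be seen. They are read 5′ to 3′ on the coding strand, and capitals mark the 8 zinc-binding codons.
MARCH1: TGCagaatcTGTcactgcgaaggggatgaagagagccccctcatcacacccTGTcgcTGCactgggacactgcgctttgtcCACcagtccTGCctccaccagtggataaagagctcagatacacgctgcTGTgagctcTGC
MARCH2: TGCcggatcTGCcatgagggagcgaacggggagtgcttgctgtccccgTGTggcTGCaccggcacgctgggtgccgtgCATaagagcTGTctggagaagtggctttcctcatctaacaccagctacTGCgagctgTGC
MARCH3: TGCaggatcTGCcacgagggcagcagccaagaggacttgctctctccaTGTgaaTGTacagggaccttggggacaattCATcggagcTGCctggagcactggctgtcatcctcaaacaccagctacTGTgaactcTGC
MARCH4: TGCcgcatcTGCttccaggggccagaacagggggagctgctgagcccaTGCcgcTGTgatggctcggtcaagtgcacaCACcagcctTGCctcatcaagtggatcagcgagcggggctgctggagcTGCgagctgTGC
MARCH5: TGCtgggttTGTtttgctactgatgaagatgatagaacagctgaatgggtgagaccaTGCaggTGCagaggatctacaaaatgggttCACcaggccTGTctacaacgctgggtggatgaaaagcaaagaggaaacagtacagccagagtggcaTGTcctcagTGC

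These stretches are coding sequence. That of MARCH2 lies within 1 coding exon at chr19:8426622-8426759, that of MARCH3 within 1 at chr5:126914975-126915112 and that of MARCH5 within 1 at chr10:92311139-92311303. Those of MARCH1 and MARCH4 are each split over 2 coding exons, between chr4:163585794-163613318 and between chr2:216283622-216369774, so these ranges include an intron. MARCH2, MARCH3 and MARCH4 had the same length, 138 bases, and the same spacing. MARCH2 and MARCH3 were identical at 99 of 138 bases (71.7%), while MARCH4 matched MARCH2 at 73 (52.9%) and MARCH3 at 66 (47.8%). MARCH4 was closer to MARCH9, at 113 of 138 bases (81.9%), and MARCH1 to MARCH8, at 116 of 141 bases (82.3%). MARCH5 had the longest stretch of the 5, 165 bases, with 18 codons between zinc-binding codons 6 and 7 where the other 4 had 12. Over all annotated transcripts, 1 of 55 pairs of MARCH genes, MARCH3 and MARCH5, shared any run of 31 bases, and it shared 2 such runs.

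MARCH3 was higher and MARCH4 lower in every CYT library than in every control library, MARCH2 was lower by less, and MARCH1 and MARCH5 overlapped between the groups. In bulk RNA fewer cells that express a gene and less of its RNA in each cell cannot be told apart, which holds for each value here. Of the 5 members 2 met the call rule of an adjusted p under 0.05 in edgeR's quasi-likelihood test, beside 28.6% of the 15572 genes tested, and nothing is read from that count since the genes were chosen with this contrast known. In the higher direction 1 of 5 met it beside 15.7% of all genes, and in the lower direction 1 of 5 beside 12.9%. The groups did not overlap in 3 of 5 members beside 46.1% of all genes. With the replicate number as a block in the fit, 3 of 5 members met the rule beside 39.9% of all genes in the same fit, MARCH2 being the added gene.

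**Figure D1:**
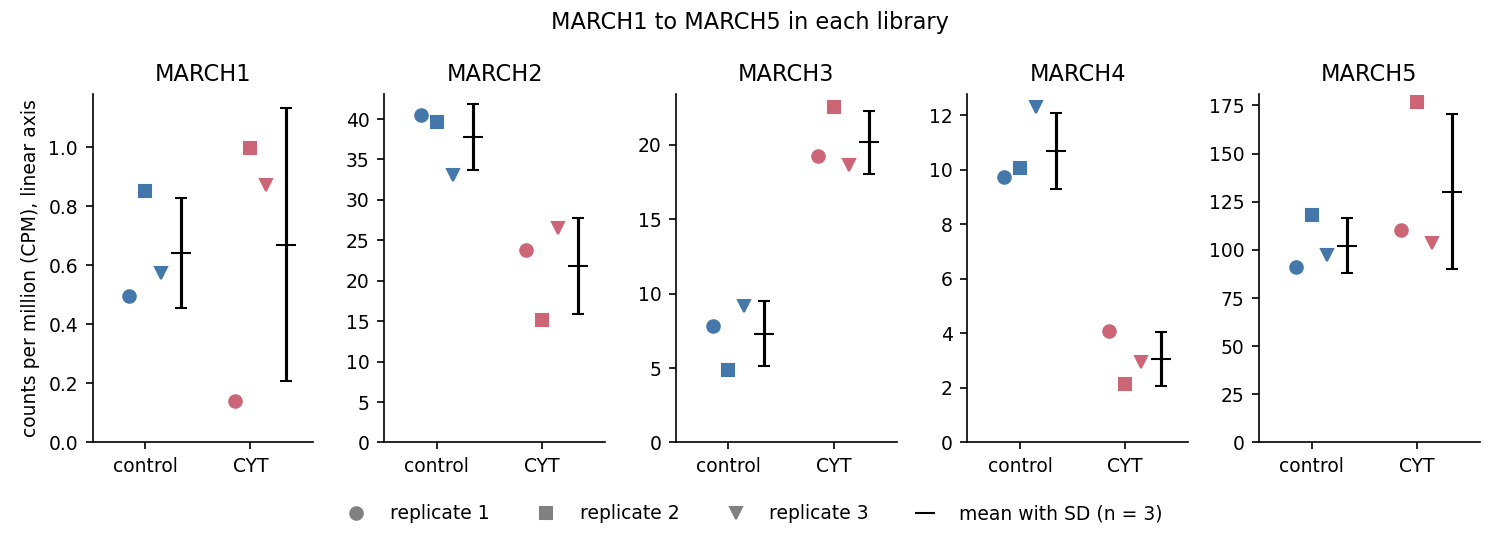
Level of MARCH1 to MARCH5 in each library, in CPM on linear axes that start at 0 and differ between genes. Symbols are single libraries and bars the mean with its SD (n = 3 per group). The CYT libraries lie above the control libraries for MARCH3 and below them for MARCH2 and MARCH4, and the groups overlap for MARCH1 and MARCH5.

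MARCH3 is a ligase of endosomes, described as acting on cytokine receptors such as the interferon gamma receptor. Its RNA was counted 126, 92 and 128 times in control 1, 2 and 3, and 273, 317 and 235 times in CYT 1, 2 and 3. Every CYT library was above every control library, and the gap between the lowest CYT level, 18.7 CPM in CYT 3, and the highest control level, 9.20 CPM in control 3, was wider than the spread within either group. The mean was 7.30 ± 2.20 CPM (SD, n = 3) in control and 20.2 ± 2.10 CPM (SD, n = 3) in CYT. The fitted log2 fold change was 1.47 ± 0.34 (SE), or 2.76-fold higher in CYT, and with any 1 library left out it lay between 1.23 and 1.64.

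MARCH4 is a ligase of the Golgi and trans-Golgi network, described as lowering surface proteins such as MHC class I, BST2 and ALCAM. It had 157, 189 and 171 counts in control 1, 2 and 3, against 58, 30 and 37 counts in CYT 1, 2 and 3. All control libraries were above all CYT libraries, and CYT 1 was the highest of the treated libraries at 4.09 CPM while control 1 was the lowest untreated at 9.73 CPM. The mean level was 10.7 ± 1.39 CPM (SD, n = 3) in control and 3.06 ± 0.983 CPM (SD, n = 3) in CYT. This gave a log2 fold change of -1.80 ± 0.37 (SE), a level 3.49-fold higher in control, with a range of -2.08 to -1.61 when 1 library was left out. MARCH3 and MARCH4 thus lay on opposite sides of 0 under each scaling tried, although their difference itself was not tested.

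MARCH2, the close relative of MARCH3, is a ligase of endosomes and the endoplasmic reticulum, where STX6 and ERGIC3 have been described as its partner and target. It had 654, 744 and 460 counts in control 1, 2 and 3, and 338, 212 and 334 counts in CYT 1, 2 and 3. CYT 2 was the lowest library at 15.1 CPM, and the highest CYT library, CYT 3 at 26.5 CPM, stayed below the lowest control library, control 3 at 33.1 CPM. The means were 37.7 ± 4.07 CPM (SD, n = 3) in control and 21.8 ± 5.99 CPM (SD, n = 3) in CYT, with a log2 fold change of -0.79 ± 0.32 (SE). Without CYT 2 the log2 fold change was -0.59. MARCH2 met the call rule only in the fit with the replicate block. Its level was lower in CYT and that of its relative MARCH3 higher, although their difference itself was not tested.

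MARCH5, the mitochondrial ligase, was the most abundant of the 5. Its counts were 1469, 2221 and 1353 in control 1, 2 and 3, and 1563, 2483 and 1306 in CYT 1, 2 and 3. CYT 2 was the highest library at 177 CPM, the other CYT libraries were at 110 and 104 CPM, and the control libraries reached 118 CPM in control 2, so that the groups overlapped. The means were 102 ± 14.2 CPM (SD, n = 3) in control and 130 ± 40.4 CPM (SD, n = 3) in CYT, and the log2 fold change of 0.35 ± 0.31 (SE) dropped to 0.06 without CYT 2. The second replicate was the highest of its group for MARCH5 in control and in CYT. In each same-numbered pair the CYT library was above the control library, at 110 against 91.1, 177 against 118 and 104 against 97.3 CPM. The fit with the replicate block gave a log2 fold change of 0.32, and MARCH5 was not called in it.

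MARCH1 was barely detected. It had 8, 16 and 8 counts in control 1, 2 and 3, and 2, 14 and 11 counts in CYT 1, 2 and 3. The lowest and the highest library were both CYT libraries, CYT 1 and CYT 2, and the control libraries lay between them. The means were 0.641 ± 0.187 CPM (SD, n = 3) and 0.671 ± 0.463 CPM (SD, n = 3), and the log2 fold change of 0.05 ± 0.69 (SE) took either sign when 1 library was left out, from -0.38 without CYT 2 to 0.53 without CYT 1. No difference in MARCH1 is read from so few counts. The MHC class II gene HLA-DRA had 0 counts in each control library and 1 in each CYT library, and CD86 had 0 in each control library and 0, 5 and 3 in CYT 1, 2 and 3.

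**Figure D2:**
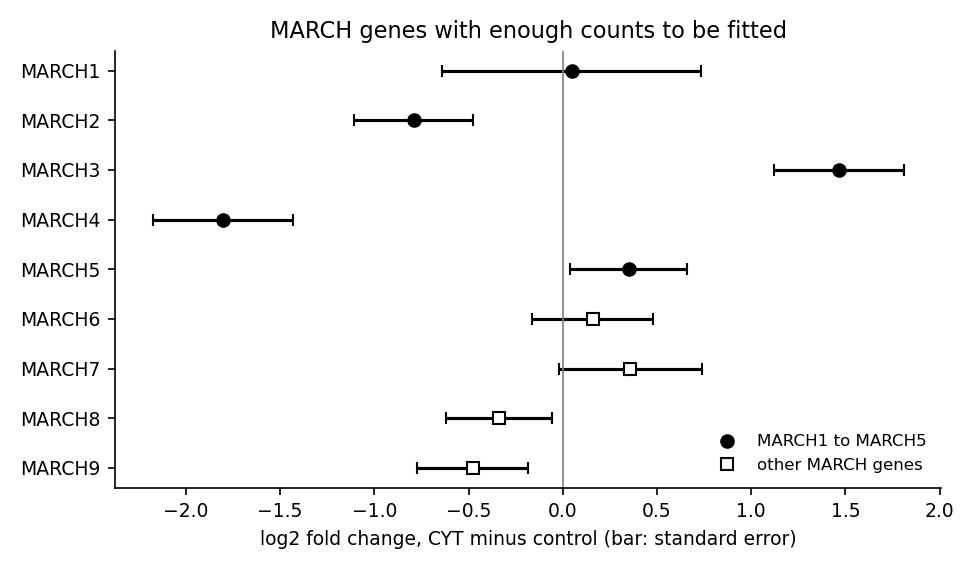
Log2 fold change of CYT over control for the 9 MARCH genes with enough counts to be fitted, with standard errors as bars. Filled circles are MARCH1 to MARCH5 and open squares the other family members. MARCH3 lies at 1.47 and MARCH4 at -1.80, and the open squares lie between -0.48 and 0.36.

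The gene names in the table had been turned into dates, and 2 dates each stood for 2 genes. The name 1-Mar held MARCH1 and MARC1, a mitochondrial amidoxime-reducing enzyme gene unrelated to the ligases, and 2-Mar held MARCH2 and MARC2. MARC1 had 300, 323 and 255 counts in control 1, 2 and 3, and 77, 107 and 94 in CYT 1, 2 and 3, which was 88.4% to 97.5% of the counts under 1-Mar. MARC1 fell (log2 fold change -1.40 ± 0.31 SE, adjusted p = 0.00963 by edgeR quasi-likelihood, Benjamini-Hochberg adjusted), in 3 of 3 CYT libraries. Added up by name, 1-Mar gave a log2 ratio of mean CPM of -1.32, against 0.06 for MARCH1 alone. The name 2-Mar gave -0.70 against -0.79 for MARCH2 alone, since MARC2 was the smaller part of it. Names of MARCH3, MARCH4 and MARCH5 were each held by 1 gene.

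**Figure D3:**
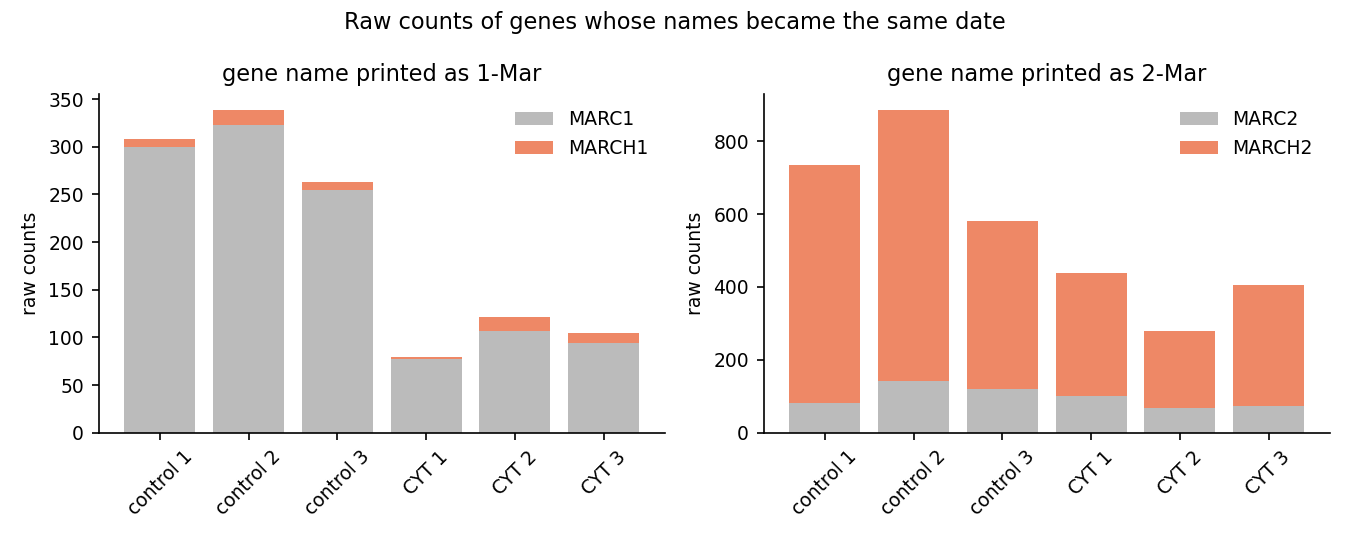
Raw counts of the genes behind the names 1-Mar and 2-Mar in each of the 6 libraries, stacked, with the MARC gene in grey and the MARCH gene in orange, on linear axes from 0. MARC1 makes up 88.4% to 97.5% of 1-Mar, while MARCH2 makes up 76.0% to 88.9% of 2-Mar.

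Genes that overlap a member on the map could share its reads, as use of strand in the counting was not stated. MARCH3 had 0 overlapping genes in the table. MARCH2 had 1, MARCH4 had 3 and MARCH5 had 1, all at 0 counts in each library. MARCH1 had 5, and 1 of them, the processed pseudogene AC105250.1 on the opposite strand at chr4:164188311-164190367, had 21, 46 and 25 counts in control 1, 2 and 3, and 13, 25 and 19 in CYT 1, 2 and 3. The 5 together held 164 counts over the 6 libraries against 59 for MARCH1 itself. Overlap was taken from whole gene spans and exons were not compared, so whether the MARCH1 counts include shared reads is uncertain.

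Levels of different genes were compared per length. In deposited FPKM, MARCH5 was first of the 11 MARCH genes in control at 20.3 ± 4.13 (SD, n = 3), followed by MARCH2 at 7.07 ± 0.864, and MARCH4 had rank 6 at 2.39 ± 0.351, MARCH3 rank 8 at 1.07 ± 0.293 and MARCH1 rank 9 at 0.0276 ± 0.00982. In CYT, MARCH5 was first at 26.4 ± 9.97 FPKM, MARCH2 had rank 4 at 4.10 ± 0.897, MARCH3 rank 5 at 3.04 ± 0.522, MARCH4 rank 8 at 0.687 ± 0.212 and MARCH1 rank 10 at 0.0291 ± 0.0206. MARCH4 was above MARCH3 in each control library and below it in each CYT library. In CYT the FPKM of MARCH2 and MARCH3 differed by about the spread between libraries, and MARCH3 was above MARCH2 in CYT 2. Among 19817 protein-coding genes, MARCH5 stood at percentile 92.5 in control and 94.5 in CYT by mean FPKM, MARCH2 at 81.0 and 74.0, MARCH3 at 53.9 and 69.4, MARCH4 at 64.7 and 48.9, and MARCH1 at 30.9 and 22.7.

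The gene length behind the deposited FPKM was the sum of all distinct annotated exons, so that bases in overlapping exons were counted repeatedly. For MARCH1 this was 23311 bases against 10421 when each base was counted once, for MARCH2 5291 against 2216, for MARCH3 6704 against 5179 and for MARCH5 5031 against 4632. MARCH4, with 1 annotated transcript, had 4447 by either count. With each base counted once, a choice made after the lengths were seen, MARCH2 in control was at 16.9 ± 2.06 CPM per kilobase (SD, n = 3) beside 22.0 ± 4.48 for MARCH5, and it kept rank 2 in CYT at 9.79 ± 2.14. MARCH3 then had rank 8 in control and 6 in CYT, and MARCH4 ranks 7 and 8. On the deposited scale MARCH5 made up 44.2% ± 2.72 (SD, n = 3) of the summed level of the 11 genes in control and 52.3% ± 5.31 in CYT, and with each base counted once 33.1% ± 2.66 and 41.6% ± 5.83. MARCH2 went from 25.7% ± 2.22 of that sum in control to 15.4% ± 6.03 in CYT with each base counted once, and MARCH3 from 2.19% ± 0.874 to 5.89% ± 0.322.

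**Figure D4:**
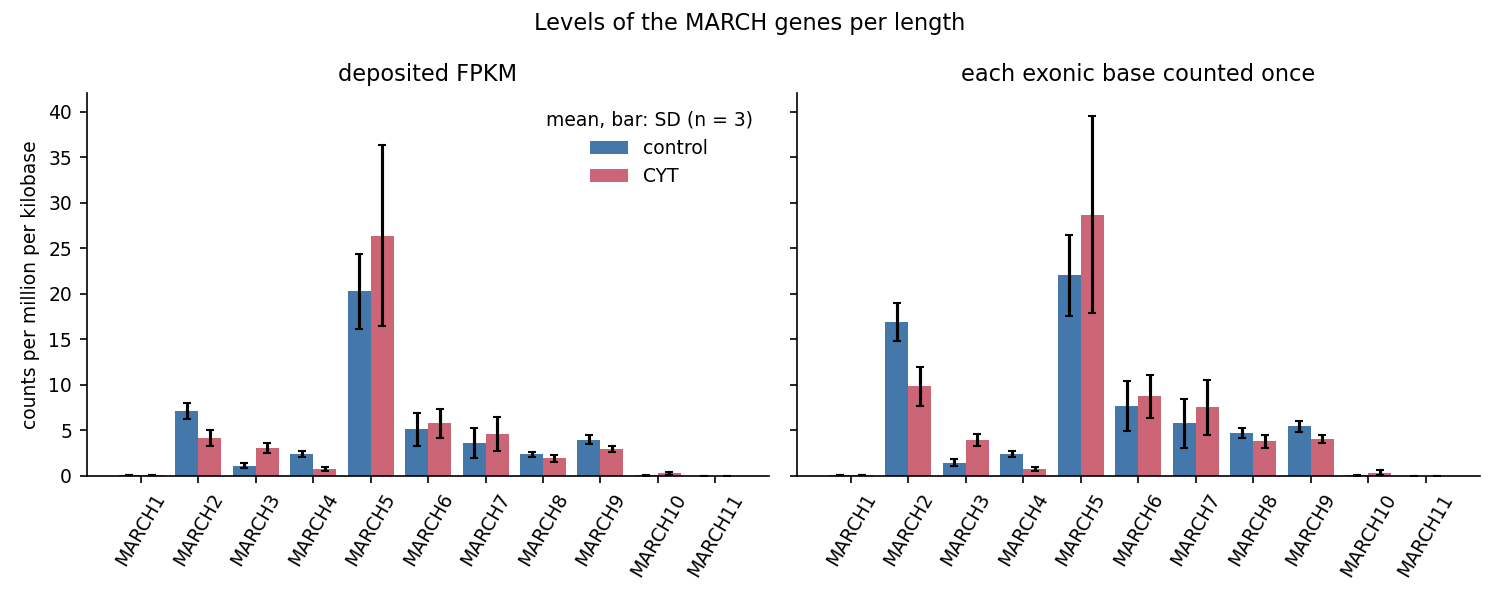
Levels of the 11 MARCH genes in CPM per kilobase, as means with SD (n = 3 per group), on linear axes from 0. The left panel uses the deposited FPKM and the right panel gene lengths with each exonic base counted once. MARCH5 is the highest in both panels, and MARCH2 in control moves from 7.07 to 16.9.

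Of the other 6 members of the family 4 had enough counts to be tested, and their values were also known when MARCH1 to MARCH5 were taken. In edgeR's quasi-likelihood test 0 of these 4, MARCH6 to MARCH9, met the call rule, beside 28.6% of all genes. Nothing is read from a count over 4 genes. Of them 0 had an unadjusted p under 0.05, and DESeq2 and limma also called 0. MARCH6, a ligase of the endoplasmic reticulum, had a log2 fold change of 0.16 ± 0.32 (SE, adjusted p = 0.746 in the edgeR test) and MARCH7 0.36 ± 0.38 (adjusted p = 0.514). Without CYT 2 these were -0.02 and 0.04. MARCH8, the close relative of MARCH1, had -0.34 ± 0.28 (edgeR adjusted p = 0.394). MARCH9, the close relative of MARCH4, had 421, 381 and 272 counts in control and 213, 234 and 197 in CYT. Its CYT libraries were all below its control libraries in CPM, and its log2 fold change was -0.48 ± 0.29 (edgeR adjusted p = 0.250). MARCH10 had 4, 0 and 0 counts in control 1, 2 and 3, and 42, 3 and 22 in CYT 1, 2 and 3, too few for the filter, and MARCH11 had 0 in every library. MARCH10 entered 5 other edgeR fits. It was called higher without the filter (adjusted p = 0.0103), without control 1 (0.0313) and without CYT 2 (0.0057), and not called without control 2 (0.0788) or control 3 (0.0971).

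Genes described as MARCH targets or partners were taken as a list. MARCH ligases act on proteins and only RNA was measured, so these values do not show whether a ligase acts on its target. Of 25 listed, 21 were tested, 5 rose and 0 fell (23.8% called beside 28.6% of all genes), with a median log2 fold change of 0.47 beside 0.01 over all genes tested. The MHC class I heavy chain gene HLA-B (2.27 ± 0.31 SE, adjusted p = 0.0012) rose in edgeR's quasi-likelihood test, higher in 3 of 3 CYT libraries, and so did IL1RAP, an interleukin receptor subunit (1.90 ± 0.45, adjusted p = 0.012), and the adhesion molecule gene ICAM1 (1.42 ± 0.40, adjusted p = 0.0259). HLA-C was also called (1.14 ± 0.31), and it was chosen after its value was seen. HLA-B and HLA-C are similar in sequence, and how reads were shared between them is uncertain. HLA-B had 1706, 1284 and 1018 counts in control and 5586, 4832 and 5771 in CYT. With 1 library left out there were 2 calls without control 3, and 3 without control 2, CYT 1 or CYT 3, in fits that called 17.6%, 23.3%, 20.7% and 19.8% of all genes. IL1RAP lost its call without control 1 or control 3 (edgeR adjusted p 0.0538 and 0.0588), and HLA-C and ICAM1 lost theirs without control 2, control 3, CYT 1 or CYT 3 (0.0702 to 0.0963).

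For MARCH3, the described target IFNGR1 had 362, 631 and 377 counts in control and 532, 1183 and 586 in CYT. Its CYT libraries were all above its control libraries in CPM, and the log2 fold change was 1.02 ± 0.37 (edgeR adjusted p = 0.0658). IFNGR1 was called in the edgeR fit with the replicate block (0.95, adjusted p = 0.0153), by DESeq2 (1.04, adjusted p = 0.0281) and with upper-quartile scaling (1.16, adjusted p = 0.0439). It was not called with no filter (adjusted p = 0.0981), by limma (0.0931 and 0.0919) or with any 1 library left out (0.0564 to 0.205), and it was 0.59 without CYT 2. FAS, a death receptor, had 0.59 ± 0.54 (edgeR adjusted p = 0.446) and 0.12 without CYT 2.

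For MARCH4, BST2 had 28, 11 and 7 counts in control and 14, 0 and 12 in CYT, and ALCAM had a log2 fold change of 0.02 ± 0.47 (edgeR adjusted p = 0.976), which was -0.72 without CYT 2. For MARCH2, STX6 had 0.81 ± 0.58 (edgeR adjusted p = 0.330; 1.07 with adjusted p = 0.0340 in the replicate block, and 0.33 without control 2) and ERGIC3 0.47 ± 0.30 (edgeR adjusted p = 0.267; 0.29 without CYT 3). For MARCH1, the transferrin receptor gene TFRC had 0.81 ± 0.43 (edgeR adjusted p = 0.186; 0.17 without CYT 2) and the insulin receptor gene INSR -0.26 ± 0.31 (adjusted p = 0.554; -0.11 without control 1).

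Genes that shape mitochondria, the place of MARCH5, were tested as a list of 24. Of 23 tested, 0 rose and 5 fell (21.7% called beside 28.6% of all genes), with a median log2 fold change of -0.22. MTFP1 (-1.62 ± 0.33 SE, adjusted p = 0.00581) and MTFR1 (-1.30 ± 0.37, adjusted p = 0.0255), which act in fission, fell in edgeR's quasi-likelihood test, as did the outer membrane carrier gene SLC25A46 (-1.14 ± 0.33, adjusted p = 0.0300) and the prohibitin gene PHB2 (-1.11 ± 0.32, adjusted p = 0.0274), each lower in 3 of 3 CYT libraries. The remaining call was MTCH2 (-1.09 ± 0.26), chosen after its value was seen to complete the count.

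RNA levels do not measure the action of MARCH5 on proteins. The best described MARCH5 targets were not called at the RNA level: MFN1 had 0.15 ± 0.37, MFN2 -0.02 ± 0.36, the fission GTPase gene DNM1L -0.10 ± 0.32 and FIS1 -0.18 ± 0.38 (edgeR adjusted p 0.797, 0.972, 0.846 and 0.756). Without CYT 2 they were -0.27, 0.28, -0.41 and 0.09. MAVS, the antiviral adaptor, had -0.37 ± 0.52 (edgeR adjusted p = 0.624) and 0.07 without CYT 2. MIEF2, a DNM1L receptor, had -0.93 ± 0.53 (edgeR adjusted p = 0.216), and it was called lower without CYT 2 (-1.88, adjusted p = 0.00372) and with the replicate block (-1.20, adjusted p = 0.0419).

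For the mitochondrial list around MARCH5 the replicate block gave 10 calls of 23, in a fit that called 39.9% of all genes, and leaving out 1 library gave 2 without control 3, CYT 1 or CYT 3, 3 without control 2, and 8 without CYT 2. The same fits called 17.6%, 20.7%, 19.8%, 23.3% and 35.6% of all genes, and without control 1 there were 4 calls beside 18.3%. Calls in the higher direction, 0 in the fit above, were 2 of 7 by DESeq2, 1 of 10 with the block and 1 of 2 without CYT 3. MTFP1 alone of the 5 kept its call each time. MTFR1 and SLC25A46 lost theirs without control 2, control 3, CYT 1 or CYT 3 (edgeR adjusted p 0.0577 to 0.115), PHB2 without control 1, control 3 or CYT 3 (0.0829 to 0.0980), and MTCH2 without CYT 1 or CYT 3 (0.0526 and 0.0574). SLC25A46 was also not called with upper-quartile scaling (0.0535) or by limma on log2 FPKM (0.0647 and 0.0578).

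E2 enzymes, which deliver ubiquitin or a related modifier to ligases, were listed as 33 genes. All 33 were tested, 1 rose and 7 fell (24.2% called beside 28.6% of all genes), with a median log2 fold change of -0.43. UBE2E2 (-3.11 ± 0.37 SE, adjusted p = 0.000748), UBE2S, which extends chains for the anaphase-promoting complex (-2.34 ± 0.46, adjusted p = 0.00557), UBE2D4 (-1.94 ± 0.61, adjusted p = 0.0396) and UBE2T of the Fanconi pathway (-1.64 ± 0.29, adjusted p = 0.00315) fell the most in edgeR's quasi-likelihood test. UBE2A, the RAD6 homologue, rose (1.38 ± 0.36, edgeR adjusted p = 0.0179). Among the UBE2D enzymes, which serve many RING ligases, UBE2D2 fell (-1.16 ± 0.33, edgeR adjusted p = 0.0262), while UBE2D1 had 0.49 ± 0.29 (adjusted p = 0.236) and UBE2D3 0.53 ± 0.35 (adjusted p = 0.282; 0.17 without CYT 2). UBE2K had -0.55 ± 0.45 (edgeR adjusted p = 0.389) and -0.03 without control 2. With the replicate block 13 were called, beside 39.9% of all genes, and leaving out 1 library gave 4 without control 3, 5 without control 1 or CYT 3, and 10 without CYT 2. Those fits called 17.6%, 18.3%, 19.8% and 35.6% of all genes. UBE2E2, UBE2S and UBE2T kept their calls each time, whereas UBE2D4 lost its call without any 1 library other than CYT 2 (edgeR adjusted p 0.0553 to 0.0871) and with upper-quartile scaling (0.0505), UBE2A without control 1, control 3 or CYT 1 (0.0556 to 0.0871), and UBE2D2 without control 2, control 3 or CYT 3 (0.0819 to 0.110).

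Membrane-anchored RING ligases outside the family were taken as a further list. Of 39 listed, 29 were tested, 5 rose and 1 fell (20.7% called beside 28.6% of all genes), with a median log2 fold change of 0.07. RNF43, a ligase that removes Wnt receptors, rose from 17, 13 and 10 counts in control to 100, 102 and 98 in CYT (3.15 ± 0.40 SE, adjusted p = 0.00102 in edgeR's quasi-likelihood test). RNF103 (2.17 ± 0.45), RNF122 (2.14 ± 0.34) and RNF167 (2.08 ± 0.34) also rose, and RNF144B fell (-1.66 ± 0.37), with edgeR adjusted p-values of 0.0068, 0.00225, 0.0025 and 0.0091. These 5 kept their calls with any 1 library left out. RNF24 (1.15 ± 0.32), chosen after its value was seen to complete the count, lost its call without control 1, control 3, CYT 1 or CYT 3 (edgeR adjusted p 0.056 to 0.121).

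**Figure D5:**
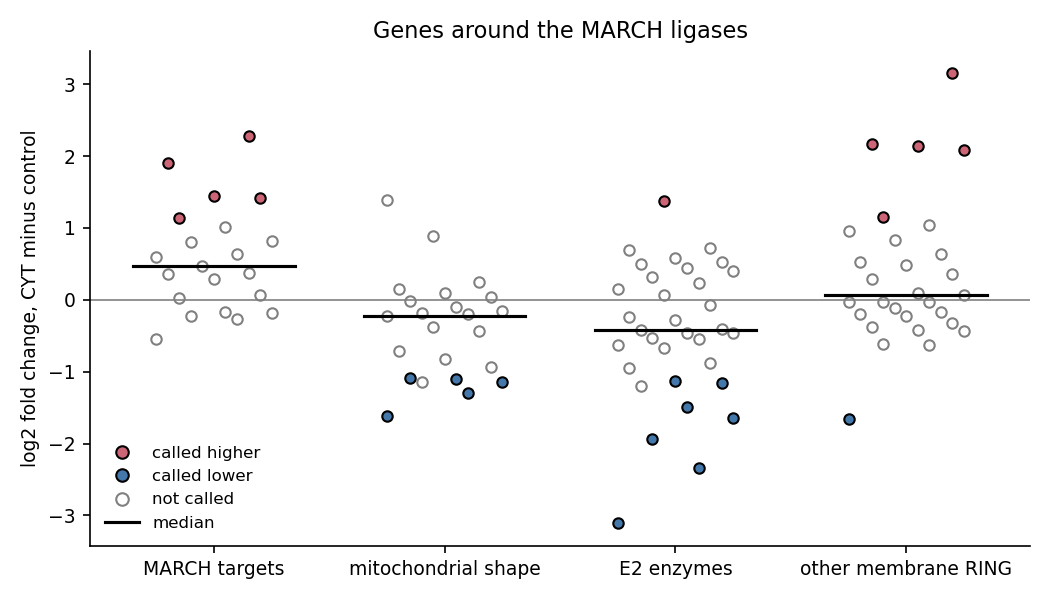
Log2 fold change of CYT over control for each tested gene of 4 lists around the MARCH ligases. Filled points were called (adjusted p under 0.05 in edgeR's quasi-likelihood test), open points were not, and lines are medians, at 0.47, -0.22, -0.43 and 0.07 from left to right.

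For each member, the 2 genes whose log2 CPM followed it most closely over the 6 libraries were taken from all tested genes whose mean level reached 5 CPM. Such a correlation over 3 libraries in each of 2 groups can come from a shared group difference or from spread within groups, and it is a description with no p. The 2 were the highest of 11416 genes compared (11417 for MARCH1), and a search over so many genes favours a high r. For MARCH3 they were the orphan nuclear receptor gene NR4A2 (r = 0.999), at 2.71 ± 0.943 CPM in control and 9.97 ± 1.24 CPM in CYT, and C14orf93 (r = 0.998). For MARCH4 they were TMEM183B (r = 0.998) and PLD6, a phospholipase gene of the mitochondrial surface (r = 0.997), the latter at 11.3 ± 1.29 CPM in control and 4.41 ± 1.11 CPM in CYT. For MARCH2 they were B4GAT1 (r = 0.996) and FAM173A (r = 0.995), at 54.5 ± 13.0 CPM in control and 12.8 ± 7.39 CPM in CYT for FAM173A, and 13 genes passed 0.99. For MARCH5 they were MFSD1 and PPTC7 (r = 0.998 and 0.997), with 24 genes past 0.99. MFSD1 was at 59.0 ± 14.4 CPM in control and 86.5 ± 42.8 CPM in CYT, and its log2 fold change of 0.55 was 0.06 without CYT 2. For MARCH1, at a few counts a library, they were MFSD9 (r = 0.997) and IRAK4 (r = 0.974). Genes past 0.99 numbered 8 for MARCH3, 17 for MARCH4 and 1 for MARCH1.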

How the data were processed

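RNA was measured in 6 libraries of MDA-MB-231-DR cells, 3 control and 3 CYT. The authors deposited raw read counts per gene and, beside them, FPKM values, which for the MARCH genes equal those counts over a gene length and the total; both kinds of column were used and 0 per-sample columns were left out. The methods name Hisat2 for alignment and Stringtie for FPKM, without versions, and the submitters' processing notes name FastQC 0.12.1 and the build hg38. Strandedness of the counting was not given in the sources used here. Loci of all 11 MARCH genes equalled those of GENCODE release 29, from which strands, lengths and coding sequences were read; protein sequences were not analysed here.

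Counts were tested with edgeR 4.0.16 (R 4.3.3) by the quasi-likelihood test after TMM scaling and a filter on low counts (minimum count 10), with Benjamini-Hochberg adjustment over 15572 genes; a call was an adjusted p under 0.05. The common biological coefficient of variation was 37.5%. An exact permutation test of 3 against 3 cannot go below p = 0.1, so none was used. The procedure was tested on simulated data. The members and the gene lists were chosen with earlier results of these data known. Genes were named by a rule: the MARCH genes, the 4 called genes highest and the 4 lowest in each list, described targets and E2 enzymes whatever their values, the 2 genes most like each member, overlapping genes, markers, and MARC1 and MARC2 as sharing a date. Some genes that met this rule are not reported here.

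Replicate numbers come from the labels. Deviations from the group means correlated across genes at r = 0.188, 0.458 and 0.124 in same-numbered libraries 1, 2 and 3. All were over 0.1, the limit set, so the numbers were taken to pair the samples in the fit with the replicate block. Control 1 correlated more with CYT 3 (0.303) than with CYT 1, and control 3 more with CYT 1 (0.201) than with CYT 3. The pairing of replicates 1 and 3 is therefore uncertain, and the main fit used no pairing. No 2 libraries of a group agreed within sampling noise (chi-square per gene 24.8 to 148). Alternatives were DESeq2 1.42.0, upper-quartile scaling, no filter, limma 3.58.1 on log2 FPKM with 1 or 0.1 added, the replicate number as a block, each library left out, an absolute log2 fold change over 1, and CPM per implied length. Gene lengths with each exonic base counted once were added after seeing the data.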

Additional observations from a re-analysis of the deposited data

How the results depend on the processing

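MARCH3 stayed higher and MARCH4 lower under all 12 other fits, and 2 of 5 members met the call rule in each except the replicate block, a paired fit, with 3. These fits called 16.0% (no filter) to 39.9% (block) of all genes. Nothing is read from the counts of members, which were chosen with this contrast known. On log2(FPKM + 1), which compresses low levels, MARCH3 was 0.97 and MARCH4 -1.01. MARCH1 took either sign: -0.03 with no filter, -0.12 with the block. Leaving out 1 library gave -0.38 to 0.53 for MARCH1, -0.93 to -0.59 for MARCH2 and 0.06 to 0.50 for MARCH5. All genes called numbered 4451, 6209 with the block, 5282 in DESeq2 and 2891 to 5752 with 1 library left out. Calls among MARCH6 to MARCH11 were 0, 1 with no filter, and 0 to 1 with 1 library left out, the gene being MARCH10. The mitochondrial list had 10 calls with the block and 2 to 8 with 1 library left out, the E2 list 13 and 4 to 10, the target list 7 and 2 to 5, and the membrane RING list 7 and 5 to 9. Beside these, the block called 39.9% of all genes, and the fits with 1 library left out called 17.6% to 35.6%. Among named genes the block added the calls of MARCH2, MIEF2, STX6, IFNGR1, ERBB2 and KRT18 and changed no other. The sign of genes not called reversed for MFN2 (0.0175 in DESeq2, 0.13 by upper quartile), DNM1L (0.0520 by upper quartile) and ALCAM (-0.0725 with no filter, -0.0743 and -0.112 by limma on FPKM with 1 or 0.1 added, -0.14 with the block). With 1 library left out the ranges were -0.27 to 0.36 for MFN1, -0.23 to 0.28 for MFN2, -0.41 to 0.10 for DNM1L, -0.51 to 0.0875 for FIS1, -0.78 to 0.0666 for MAVS, -1.004 to 0.22 for BST2, -0.72 to 0.32 for ALCAM and -0.0238 to 0.41 for MARCH6. MFSD9, at -0.05 in the main fit, was also reversed by upper quartile (0.0961). With 1 library left out MFSD9 ranged from -0.16 to 0.0919, and IRAK4, at -0.17 in the main fit, from -0.57 to 0.19. The cause was not tested. Over all genes the median was 0.01, against 0.16 with upper-quartile scaling and 0.41 with no filter. The share of calls that were higher was 55.0%, and 63.9% by upper quartile. MARCH1, MARCH10 and BST2 had few counts, 0 to 42 a library.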

Other observations

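The table held 27 names that were dates, 13 of them in March, standing for 11 distinct March dates.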
